A study of Ovis aries with 16 samples.

Results

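The 300 most abundant piRNAs of the ovine testis were examined in 16 Merino males, 24 months old at the start. They were chosen by the mean of their deposited CPM over all 16 libraries, and make up 300 of 4996 listed piRNAs (6.0% of the IDs). CPM here is reads per 1000000 reads of the piRNA class alone, so each value is a share of the piRNAs in that male and not an amount of RNA. Before the choice 8 piRNAs were set aside, and as they ranked 425th or lower, none of them would have been among the 300. The 8 well-fed males were fed for a 10% gain in body mass and the 8 underfed males for a change of -10%, both over 65 days, and 1 small RNA library was made from each testis. The labels give no other treatment of either diet group. The libraries were made from whole testis tissue, which holds germ cells at every stage together with somatic cells.

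piRNAs are small RNAs of the male germ line that are bound by PIWI proteins. They are cut from long single-stranded precursor transcripts that come from clusters in the genome, and in the adult mammalian testis they are most abundant in meiotic spermatocytes and round spermatids. They are best known for silencing transposable elements, and many adult testis piRNAs match no transposon. The piRNAs were read as fragments of 26 to 32 nt with a perfect match at a single place in the sheep genome, and were retained by a predictor trained on piRNAs of other species. They are known here by ID only, and their sequences and genome positions were not analysed here.

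The libraries differed widely in depth, from 18110 to 721305 piRNA reads. Well-fed male 5 (25552 reads), underfed male 6 (18110 reads) and underfed male 8 (33385 reads) stood apart, since the other 13 libraries held 244875 reads or more. A floor of 3 reads, the limit that a count of 0 allows, was 4.16 CPM in the deepest library and 166 CPM in the shallowest, while values of 1 or 2 reads are listed too. As PCR reads are not independent molecules, this floor covers counting error only. Of the 300 piRNAs, 296 were above 0 in every library. A member was read 504 times in the median of the deeper libraries but 30 times in the median of the 3 shallow ones. No library was a copy of another, because even the closest pair of libraries differed by 2.0 times the counting error (chi-square per degree of freedom). The germ cell miRNA miR-34c was present in all males as its predicted sheep homologue (predicted miRNA number 31, 33485 to 54063 CPM of the miRNA class in well-fed males and 7483 to 42915 CPM in underfed males).

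Together the 300 piRNAs took 65.1% of the listed piRNA reads, pooled over the 16 libraries. In each male the share was taken of the whole piRNA class, listed or not, and no male was far from 65.1%. This share per male was 64.6 ± 0.784% of piRNA reads (SD, n = 8) in well-fed males. Its lowest value was 62.8%, its median 64.8% and its highest 65.4%. In underfed males it was 64.4 ± 2.09% (SD, n = 8), from 61.3% in male 3 through a median of 64.0% to 67.7% in male 1. The well-fed values lay within the range of the underfed values, and the difference of means was -0.225 percentage points, less than the pooled SD of 1.58. Within the 300, reads were concentrated on few sequences: the first 10 took 16.8% of piRNA reads, the next 40 took 19.4%, the next 100 took 15.9% and the last 150 took 12.4% (means of 16 libraries). The first 21 piRNAs were enough for 25% of all piRNA reads, and the first 133 for 50%.

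**Figure D1:**
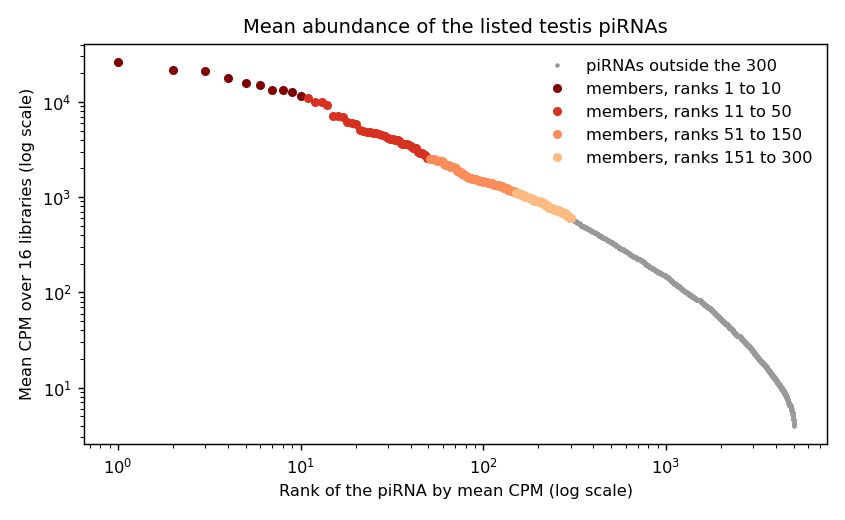
Mean CPM within the piRNA class over 16 libraries (vertical axis, log scale) against the rank of each listed piRNA (horizontal axis, log scale), with the 300 members coloured by rank and the other piRNAs in grey. The curve falls without a step at rank 300, from 26111 CPM at rank 1 to 598 CPM at rank 300.

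The mean CPM fell 43.7-fold from oar-piR-2843, the most abundant piRNA (26111 CPM), to oar-piR-10166, the last (598 CPM). The piRNAs on both sides of rank 300 were alike in level. The last 3 inside were oar-piR-1339 (605 CPM), oar-piR-8241 (605 CPM) and oar-piR-10166 (598 CPM), and the first 3 outside were oar-piR-2026 (593 CPM), oar-piR-2610 (593 CPM) and oar-piR-102 (587 CPM). A choice by the median in place of the mean gave 295 of the same 300. A choice by the well-fed males alone kept 291 and a choice by the underfed males alone kept 292.

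The 10 most abundant piRNAs were oar-piR-2843, oar-piR-9, oar-piR-2, oar-piR-1478, oar-piR-121, oar-piR-755, oar-piR-550, oar-piR-120, oar-piR-488 and oar-piR-4. The same 10 came first by the mean of the well-fed males, and 9 of them by the mean of the underfed males. oar-piR-2843 ranged from 17431 CPM through a median of 27063 to 38221 in well-fed males and from 15394 through 26890 to 29627 in underfed males. oar-piR-9 ranged from 12800 through 18974 to 29493 CPM in well-fed males and from 19080 through 23309 to 31184 in underfed males. For both piRNAs the ranges of the diets overlapped over most of their length. The steadiest of the 10 was oar-piR-2, with 16624, 22536 and 25210 CPM (lowest, median and highest) in well-fed males and 17070, 20557 and 23081 in underfed males, so that its highest value was 1.52 times its lowest. oar-piR-4 was almost as even, with a ratio of 1.63 between its highest and lowest library. oar-piR-755 varied more, from 6449 CPM in well-fed male 7 to 27165 CPM in underfed male 1, a ratio of 4.21. Neighbours in this order were often closer to each other than the spread of their own values: oar-piR-9 (21497 CPM) and oar-piR-2 (20865 CPM) overlapped in range, as did oar-piR-550 (13460 CPM) and oar-piR-120 (13452 CPM).

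**Figure D2:**
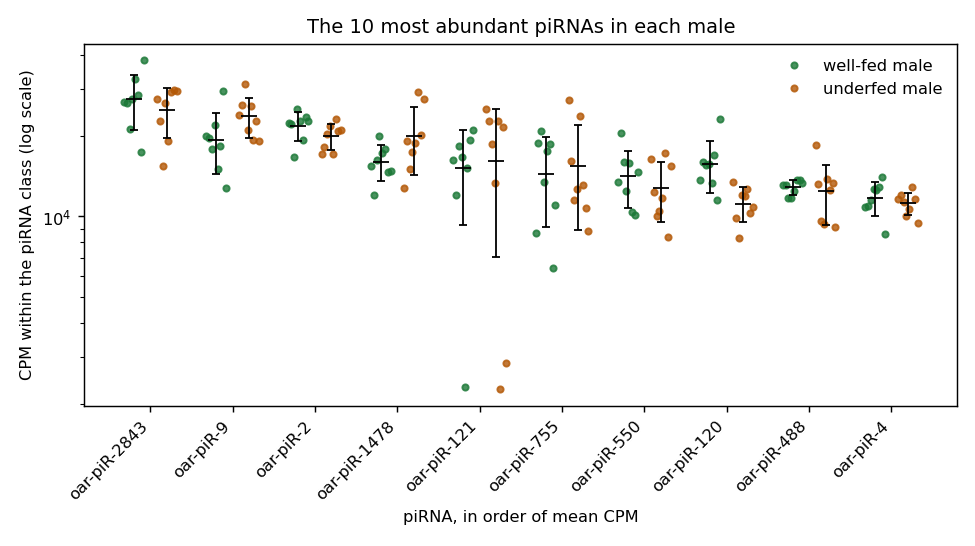
CPM within the piRNA class (vertical axis, log scale) of the 10 most abundant piRNAs, with one point per male, well-fed in green and underfed in orange, and bars for the mean ± SD (n = 8 per diet). The diets overlap for each of the 10 piRNAs, and the 3 low points of oar-piR-121 (2264 to 2846 CPM) are the 3 shallow libraries.

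The 300 differed in how evenly they were expressed among males. The pooled SD between males on the same diet, on the log2(CPM + 1) scale, had a median of 0.37 over the 300 (quartiles 0.29 and 0.53). The 4696 other listed piRNAs had a median SD of 1.48 on this scale, and they were also read less often. For 65 of the 300 all 16 values lay within 2-fold of each other, and 214 had an SD below 0.5. The spread between males was larger than the counting error for 298 of the 300, with a median ratio of 2.83. Over the 300 piRNAs, Pearson's r between 2 libraries on the log2 scale had a median of 0.736 (0.530 to 0.939, all pairs of 16 libraries). The median r was 0.738 for males on the same diet and 0.733 for males on different diets. Without the 12 piRNAs that were nearly missing from some males, it was 0.889 on the same diet and 0.864 on different diets. These values describe libraries that share their read processing, and the piRNAs within a library are not independent.

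oar-piR-908 had the smallest spread (SD 0.14), with 1009, 1116 and 1317 CPM (lowest, median and highest) in well-fed males and 947, 1062 and 1325 in underfed males. oar-piR-1 (SD 0.14) had 3085, 3598 and 3987 CPM in well-fed males and 3114, 3786 and 4229 in underfed males. oar-piR-275 (SD 0.15) was as steady within each diet, but its deposited CPM in the 2 diets lay apart, as given with the diet comparison. At the other end, 14 members had an SD above 1, and the highest were oar-piR-10959 (3.75), oar-piR-2886 (3.63) and oar-piR-223 (3.54). The SD of these 3 came from males in which they were nearly missing.

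Of the 300 piRNAs, 12 had at least 1 library under 10% of their own median, a threshold set after the values were seen. Across the 864 listed piRNAs with a median CPM worth at least 3 reads in every library, 49 (5.67%) had such a library, against 12 of 300 (4.0%) here. The low values were not all in 1 diet: 21 were in well-fed and 15 in underfed males. They were also not confined to the shallow libraries, since 11 members were found when only the 13 deeper libraries were used. Underfed male 2 had the most, with 7 of the 12 piRNAs low, followed by well-fed males 6 and 8 with 5 each. Well-fed male 7 and underfed males 3, 4 and 6 had none.

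Several of the 12 were low in the same males. oar-piR-1411, the most abundant of one such set (2850 CPM), was at 161 CPM in well-fed male 6, 141 CPM in well-fed male 8 and 109 CPM in underfed male 2, and between 1568 and 5301 CPM in the other 13 males. oar-piR-5420 was at 133, 120 and 72.4 CPM in these 3 males and between 1119 and 4417 CPM elsewhere. oar-piR-2823 was at 62.4, 59.2 and 137 CPM there and between 1277 and 3647 CPM elsewhere. In all 3 piRNAs the low males lay apart from the others, with no value in between. The ratio of oar-piR-1411 to oar-piR-5420 stayed between 1.18 and 1.5 in all 16 males (median 1.34), also in the males where both were low, while that of oar-piR-1411 to oar-piR-2823 ranged from 0.796 to 2.58. One listed piRNA outside the 300, oar-piR-720, was low in the same 3 males and no other.

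oar-piR-10959 was low in the same 3 males and in well-fed male 2. It was listed at 0 in well-fed male 2, where its median level would have given 612 reads, and in underfed male 2, at 36.0 CPM in well-fed male 6 and at 41.1 CPM in well-fed male 8. Its highest value, 3327 CPM in well-fed male 5, was 22.3% of its sum over the 16 libraries, the largest share held by 1 library among the 300. oar-piR-2886 was low in these 4 males, from 3.45 to 39.0 CPM, and was listed at 0 in underfed male 7 as well. It was between 731 and 2209 CPM in the remaining 11 males. oar-piR-1701, outside the 300, had the same 4 low males as oar-piR-10959.

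A second set was formed by oar-piR-223 (4026 CPM) and oar-piR-1189 (1510 CPM). oar-piR-223 had 3 levels: 4.04 and 9.22 CPM in well-fed males 1 and 3, from 245 to 329 CPM in underfed males 2, 5 and 8, and from 3160 to 8727 CPM in the other 11. oar-piR-1189 followed it, with 4.04 and 3.07 CPM in well-fed males 1 and 3, from 85.8 to 106 CPM in underfed males 2, 5 and 8, and from 1015 to 3992 CPM elsewhere. The 5 low males were the same for both, and no other listed piRNA with a median of 3 reads or more had exactly these 5. In well-fed male 1 the 4.04 CPM of oar-piR-223 were 2 reads, where its median level would have given 1948. The ratio of oar-piR-223 to oar-piR-1189 ranged from 1.00 to 3.67 with a median of 2.84.

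The other 5 were low in males of their own. oar-piR-10 was listed at 0 in well-fed male 1, where 627 reads would have been its median level, and at 3.45 CPM in well-fed male 2, and was from 212 to 2410 CPM in the others. oar-piR-7577 was listed at 0 in well-fed male 5 alone, a shallow library in which its median level would have given 34.6 reads, and was from 956 to 3168 CPM in the other 15. oar-piR-3411 was low in well-fed males 3 and 4 and underfed male 7 (83.2 to 107 CPM), was at 157 CPM in well-fed male 5 and reached 1903 CPM in underfed male 5. oar-piR-185 was low in underfed male 1 (55.5 CPM) and oar-piR-2476 in underfed male 5 (65.3 CPM). Each of these 5 patterns held 1 member of the 300. oar-piR-389 and oar-piR-3389 leaned to the opposite side, with 18% of the summed CPM of oar-piR-389 in underfed male 2 (5054 CPM) and 17.1% of that of oar-piR-3389 in underfed male 8 (2306 CPM), where an even spread would give 6.25%.

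**Figure D3:**
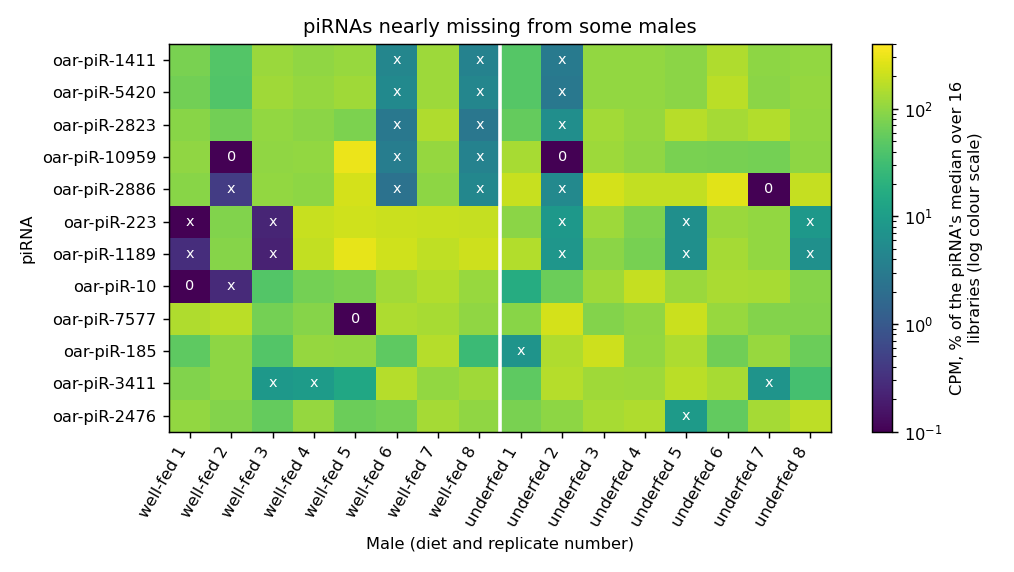
CPM of the 12 piRNAs (rows) in each of the 16 males (columns, diets divided by the white line), as a percentage of the median of that piRNA and on a log colour scale. Cells marked x are under 10% of the median and cells marked 0 are listed at 0, and the same males are low for oar-piR-1411, oar-piR-5420 and oar-piR-2823, and again for oar-piR-223 and oar-piR-1189.

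The 3 shallow libraries shared features that the 13 deeper ones did not have. For 7 of the 300 piRNAs all 3 shallow libraries lay below all 13 others, against 13.5% of all listed piRNAs, and for 4 they lay above all others, against 1.56% of all listed piRNAs. oar-piR-121, the fifth most abundant piRNA, was the extreme case. It was at 2309 CPM (59 reads) in well-fed male 5, 2264 CPM (41 reads) in underfed male 6 and 2846 CPM (95 reads) in underfed male 8, and from 12052 through a median of 18656 to 25212 CPM in the others. The shallow mean was 0.132 times the mean of the others. oar-piR-12442 was lower as well, at 221 to 352 CPM (4 to 9 reads) against 624 to 1665 CPM, and so were oar-piR-302, oar-piR-134, oar-piR-2361 and the pair oar-piR-22 and oar-piR-23, by 0.482 to 0.657 times. Higher in the shallow libraries were oar-piR-5202 (2154 to 2740 CPM against 897 to 1764 CPM), oar-piR-251 (1487 to 2037 CPM against 678 to 1403 CPM), oar-piR-1354 (2505 to 3424 CPM against 1697 to 2273 CPM) and oar-piR-325 (2098 to 2217 CPM against 1213 to 2083 CPM). The diet comparison holds 2 of these libraries on the underfed and 1 on the well-fed side. Without the 3 libraries, the log2 fold change of oar-piR-121 between diets went from -0.19 to 0.27 (unadjusted p = 0.143, limma), and it passed the test in neither fit.

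**Figure D4:**
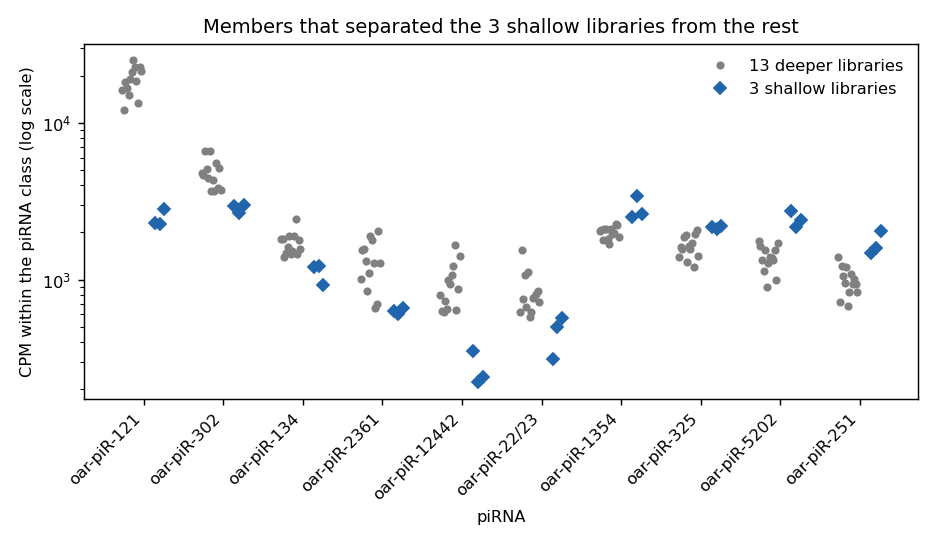
CPM within the piRNA class (vertical axis, log scale) of the 11 piRNAs for which the 3 shallow libraries (blue diamonds) lay outside the range of the 13 deeper libraries (grey points); oar-piR-22 and oar-piR-23 have equal values and share a place. The gap is widest for oar-piR-121, with 2264 to 2846 CPM against 12052 to 25212 CPM.

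The comparison of underfed with well-fed males asked whether under-nutrition changed the level of single piRNAs. None of the 300 was DE in the fit made here. The lowest FDR among them was 0.897 (limma, over all 4996 piRNAs), where 0.02% of all listed piRNAs were DE, that is 1 piRNA, which was among the 8 set aside. DE required FDR under 0.05 and FC, the ratio of mean CPM in underfed to well-fed males, under 0.67 or above 1.5. The authors, who tested with edgeR, listed the members oar-piR-223, oar-piR-1189 and oar-piR-2886 among their DE piRNAs. At an unadjusted p under 0.05, 1 member was higher in underfed males (0.333%, against 0.681% of all listed piRNAs) and 29 were lower (9.67%, against 3.9% of all listed piRNAs). The 30 are therefore single values that did not pass the correction. The libraries were scaled by TMM, a factor that assumes most piRNAs unchanged between 2 libraries and uses those above 0 in both. The 3 shallow libraries had the highest factors (1.22 to 1.31). The median log2 fold change over all listed piRNAs was -0.23 with the scaling and -0.17 without it. Without this scaling 5 were higher and 23 lower (1.67% and 7.67%, against 1.02% and 3.54% of all listed piRNAs). Without the 3 shallow libraries 6 were higher and 23 lower (2.0% and 7.67%, against 3.09% and 4.86% of all listed). With the log2 piRNA reads of a library as a covariate 13 were higher and 17 lower (4.33% and 5.67%, against 7.13% and 2.2%). In both directions together the members stood at 10% against 4.58% of all listed piRNAs in the reported fit, at 9.67% against 7.95% without the shallow libraries and at 10% against 9.33% with the covariate. Without underfed male 1, 48 were lower and 11 higher (16% and 3.67%, against 5.91% and 1.33% of all listed piRNAs). In both directions together the share then rose from 10% to 19.7% of the members and from 4.58% to 7.23% of all listed piRNAs. The count of 1 higher member also became 2 to 5 without well-fed male 1, 4 or 7 or underfed male 5, 6 or 8. These were 0.667% to 1.67% of the members, against 0.675% to 1.63% of all listed piRNAs. It became 0 without well-fed male 2 or 3, against 0.617% and 0.512% of all listed.

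As whole tissue was used, fewer germ cells and less RNA per cell cannot be told apart. The underfed libraries held fewer piRNA reads (median 280058, against 562817 in well-fed males) and more miRNA reads for each piRNA read (0.517 to 3.13, against 0.355 to 0.908). The miRNA read numbers were estimated from the smallest miRNA value of a library, which can be a share of a read, so these ratios are approximate. Of the germ cell markers, the predicted miRNA number 31 was at 19776 ± 12441 CPM in underfed and 44970 ± 8046 CPM in well-fed males, and number 30, the homologue of miR-34b, at 1249 ± 1057 and 2547 ± 732 CPM (mean ± SD, n = 8). Of the stromal and smooth muscle markers, oar-miR-143 was at 183323 ± 25449 and 177148 ± 21844 CPM in underfed and well-fed males, the homologue of miR-145 (number 90) at 4805 ± 2305 and 3984 ± 894 CPM, oar-miR-10b at 294060 ± 80326 and 209456 ± 29580 CPM, and oar-miR-99a at 2370 ± 2469 and 1095 ± 164 CPM. The part of these markers in the values of the 300 piRNAs was not tested. The fit with piRNA reads as a covariate used the depth of each library and no marker.

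Most of the 300 lay close to a log2 fold change of 0. The median log2 fold change of underfed over well-fed males was -0.10 over the 300 and -0.23 over all listed piRNAs, and 98 of the 300 (32.7%) were positive, against 32.5% of all listed. Without the 3 shallow libraries these medians were -0.03 and -0.04, with 45% and 44.3% positive, and with piRNA reads as a covariate they were 0.0019 and 0.10. A single shallow library moved them too: they were -0.04 and -0.04 without underfed male 6, -0.06 and -0.12 without underfed male 8, and -0.15 and -0.39 without well-fed male 5. The quartiles over the 300 were -0.25 and 0.06. By rank, the median was -0.17 for the first 10, -0.07 for the next 40, -0.09 for the next 100 and -0.10 for the last 150, with 3 of 10, 13 of 40, 27 of 100 and 55 of 150 positive. The median SE of a log2 fold change was 0.20 over the 300 and 0.73 over the piRNAs ranked below. For 266 of the 300 (88.7%) the 95% interval lay within -1 and 1, so a 2-fold change in either direction was outside it, while this was so for 24.6% of all listed piRNAs. For the other 34 members the interval reached beyond -1 or 1, and the 12 with nearly missing males were among these.

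Among the first 10 piRNAs, oar-piR-120 had the lowest p. It was from 11541 through a median of 15594 to 23141 CPM in well-fed males and from 8314 through 11375 to 13498 CPM in underfed males. The ranges overlapped, although the mean was lower in underfed males (11177 ± 1679 CPM) than in well-fed males (15726 ± 3463 CPM; log2 fold change -0.55 ± 0.17 SE, unadjusted p = 0.00522, FDR = 0.897, limma). The other 9 of the first 10 had unadjusted p of 0.123 or more. Their log2 fold changes ran from -0.23 for oar-piR-550 to 0.24 for oar-piR-9, each with an interval that included 0. That of oar-piR-2, the steadiest of them, was -0.20 with a 95% interval of -0.46 to 0.06. Without the 3 shallow libraries oar-piR-9 had a log2 fold change of 0.35 (unadjusted p = 0.0422, FDR = 0.608, limma). The rest of these 9 had unadjusted p of 0.143 or more in that fit (limma).

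The 6 lower members of lowest p were oar-piR-170, oar-piR-1426, oar-piR-1708, oar-piR-2608, oar-piR-275 and oar-piR-12543. In deposited CPM, oar-piR-275 was the single member whose diets did not overlap. It was from 3776 through 4181 to 4897 CPM in well-fed males and from 2755 through 3512 to 3763 CPM in underfed males. Of all listed piRNAs, 0.12% had every well-fed value above every underfed value, and 0.02% had the opposite, which none of the 300 had. The gap between the diets of oar-piR-275 was small, from 3763 CPM in underfed male 4 to 3776 CPM in well-fed male 8. Divided by the TMM factors of the fit (1.22 in well-fed male 5, 0.876 in underfed male 1), the values of the diets overlapped. On these scaled values the log2 fold change of oar-piR-275 was -0.41 ± 0.13 SE (unadjusted p = 0.00465, limma).

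oar-piR-170 had the lowest p of the 300 (0.00265 unadjusted, FDR = 0.897, limma), with 856, 1085 and 1218 CPM (lowest, median and highest) in well-fed males and 474, 753 and 1085 CPM in underfed males. oar-piR-1708 had 607, 830 and 981 CPM in well-fed males and 525, 603 and 710 CPM in underfed males. For both, well-fed values overlapped the upper part of the underfed range only. oar-piR-2608 had 1292, 1773 and 1970 CPM in well-fed males and 878, 1190 and 1887 CPM in underfed males, with the shallow underfed male 8 at the top. Without the shallow libraries its log2 fold change went from -0.54 to -0.70, and the unadjusted p from 0.00404 to 0.000259 (FDR = 0.258, limma). For oar-piR-12543 the well-fed males had 612, 921 and 1213 CPM, and the underfed males 570, 686 and 869 CPM. oar-piR-120 and these 6 kept an unadjusted p under 0.05 in each of 25 other fits, which included each male left out in turn. The lowest FDR any of the 7 reached in them was 0.258 (limma). The 7 were singled out by low p in these same data and the fits share most libraries, so this is no separate support. The fit without the CPM filter is among the 25 and equals the reported fit, because the filter removed no piRNA.

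oar-piR-1426 had the largest change of the 6, with 508, 846 and 1064 CPM in well-fed males and 210, 446 and 755 CPM in underfed males (FC = 0.575, log2 fold change -0.96 ± 0.29 SE, unadjusted p = 0.00346, limma). Among the 29 lower members, FC was under 0.67 for this piRNA and for oar-piR-2004 (FC = 0.643) and oar-piR-535 (FC = 0.640), the last 2 named after their values were seen. The other 26 were lower by less. The median log2 fold change over the 29 was -0.46, from -1.0 for oar-piR-535 to -0.31 for oar-piR-62. They were spread over the ranks, with 1 among the first 10, 3 among the next 40, 11 among the next 100 and 14 among the last 150. The last member by rank, oar-piR-10166, was one of them, with an unadjusted p of 0.0476 (limma) that was above 0.05 in 14 of the 25 other fits.

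In the opposite direction, oar-piR-1339 was the single member with an unadjusted p under 0.05. It had 224, 457 and 744 CPM in well-fed males and 449, 676 and 1325 CPM in underfed males, and its FC of 1.54 (log2 fold change 0.59 ± 0.25 SE) had an unadjusted p of 0.0273 and an FDR of 0.897 in limma. The ranges overlapped, and its highest value, in the shallow underfed male 6, rested on 24 reads. Without that male its unadjusted p was 0.0548, and without well-fed male 1, 2 or 3 it was 0.0517, 0.0506 and 0.0643 (limma). The next 5 by p were oar-piR-38, oar-piR-5878, oar-piR-10740, oar-piR-2351 and oar-piR-1097, with log2 fold changes of 0.28 to 0.43 and unadjusted p of 0.0744 to 0.101 (limma). Of these, oar-piR-10740 had 757, 930 and 1357 CPM in well-fed males and 957, 1308 and 2128 CPM in underfed males. The underfed mean was above the well-fed mean for all 5, with overlapping ranges.

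**Figure D5:**
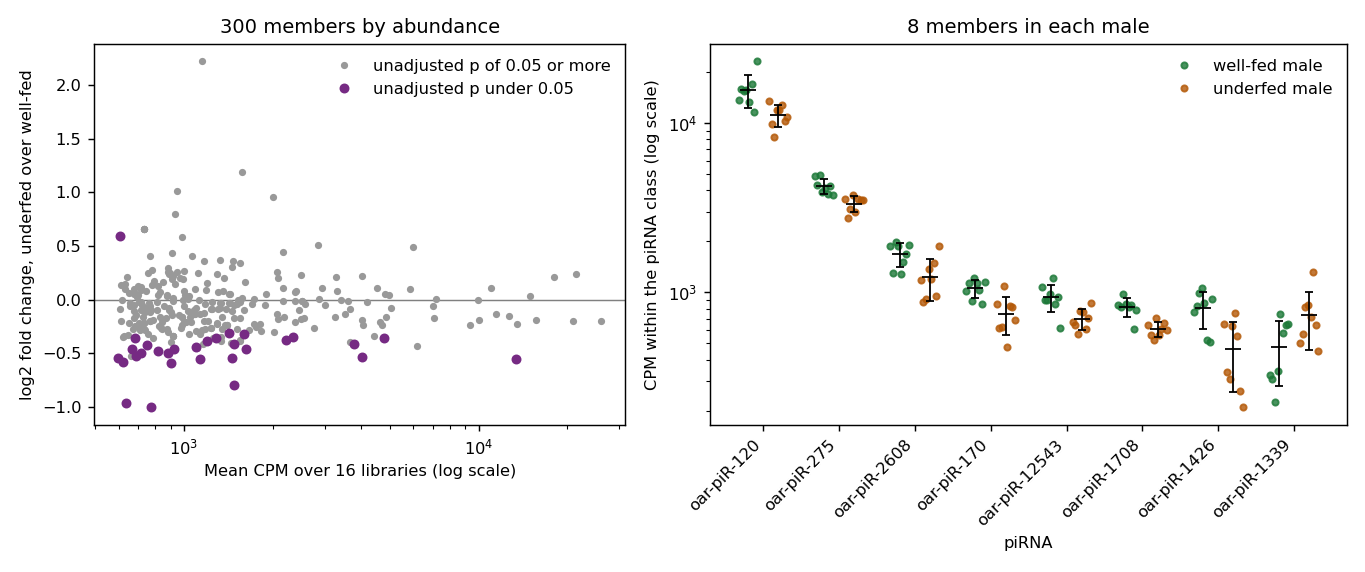
Left, log2 fold change of underfed over well-fed males (vertical axis) against mean CPM (horizontal axis, log scale) for the 300 members, purple where the unadjusted p was under 0.05; right, CPM (log scale) of 8 of them in each male with mean ± SD (n = 8 per diet). In the left panel 29 of the 30 purple points lie below 0. In the right panel, in CPM before TMM scaling, only oar-piR-275 has diets that do not overlap.

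Of the 12 piRNAs with nearly missing males, some had large log2 fold changes and all had wide intervals, with an SE of 0.44 or more. oar-piR-10 had the highest log2 fold change of the 300 (2.22, 95% interval -0.54 to 4.99), while its FC of mean CPM was 1.48; it held 0 and 3.45 CPM in 2 well-fed males. oar-piR-223 had an FC of 0.488 but a log2 fold change of 0.22 (95% interval -2.91 to 3.36), so that the ratio of means and the modelled change pointed in opposite directions. oar-piR-1189 had an FC of 0.494 and a log2 fold change of -0.04. None of the 12 had an unadjusted p under 0.108 (limma). The edgeR test of the authors, in contrast, called oar-piR-223 and oar-piR-1189 DE and lower in underfed males, and oar-piR-2886 DE and higher. For oar-piR-223 their direction was that of the FC here and opposite to the modelled log2 fold change.

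Some members could not be told apart by their values. In 8 sets of 2 to 4 IDs with consecutive numbers, 19 members in all (6.33%, against 12.5% of all listed piRNAs), the IDs had equal CPM in every library, so the 300 IDs gave 289 separate profiles. The largest set was oar-piR-8172 to oar-piR-8175, at 898 ± 483 CPM in underfed males and 564 ± 345 CPM in well-fed males (mean ± SD, n = 8; log2 fold change 0.66, unadjusted p = 0.114, limma). The most abundant was the pair oar-piR-2530 and oar-piR-2531, at 2584 ± 731 CPM in underfed males and 2431 ± 407 CPM in well-fed males. Whether such IDs stand for separate molecules cannot be read from the values. None of the 29 lower members was in such a set, and counting each set once left 1 higher and 29 lower members.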

How the data were processed

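The deposited signal values are CPM: the authors scaled piRNAs and miRNAs apart, by the reads of each class, and listed both in a single column for each male. The authors demultiplexed reads with CASAVA 1.8, trimmed adaptors, removed Rfam matches, mapped reads of 26 to 32 nt to Oar 3.1 without mismatch and tested with edgeR. One file held 8295 blank lines, which were skipped. Low piRNA values were whole multiples of 1 read (100% within 0.1 read), which gave the piRNA read numbers. TMM factors (30% of log ratios and 5% of abundances trimmed, own implementation) were computed on these reads. Log2(scaled CPM + 1) was fitted for all 4996 piRNAs with limma 3.58.1 (R 4.3.3, empirical Bayes with trend, two-sided), with Benjamini-Hochberg FDR over all of them. A filter of CPM above 5 in 8 of 16 libraries removed none. Scripts were tested on simulated reads. Each male is 1 replicate, grouped by the diet label. The members and lists were chosen with earlier results of these data known. Named piRNAs were the 10 of highest mean CPM, the 6 of lowest p per direction, those with diets that did not overlap, 3 on each side of rank 300, 3 of lowest and 3 of highest SD and 3 of largest share in 1 library. Those with low libraries or a depth gap were added after their values were seen. Python 3.11.15, numpy 2.4.6 and pandas 2.3.3 were used.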

Additional observations from a re-analysis of the deposited data

Results flagged for a closer look

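Among 64 sets of 8 values (the named piRNAs and the summed share, in each diet), 10 had 1 male with a wide gap. A gap was wide if it was over 0.526 of the range from the nearest neighbour. About 1 in 20 would by chance if values were normally distributed, while CPM was used here without a log scale. Over all 300 piRNAs it was 52 of 600 (8.67%). Some named piRNAs were chosen for a high SD or a large share in 1 library, so the 10 are not a test. Well-fed male 8 was far above the other well-fed males for oar-piR-120 (23141 CPM) and oar-piR-908 (1317 CPM). Underfed male 3 was high for oar-piR-10740 (2128 CPM). In the shallow libraries, underfed male 6 was high for oar-piR-1339 (1325 CPM, 24 reads) and for oar-piR-908 (1325 CPM, 24 reads), and underfed male 8 for oar-piR-2351 (1977 CPM, 66 reads). Well-fed male 5, also shallow, was high for oar-piR-10959 (3327 CPM, 85 reads) and oar-piR-2886 (1839 CPM, 47 reads). Underfed male 2 was the low one for oar-piR-10959 (0 CPM). Well-fed male 7 had the lowest share of piRNA reads in the 300 among the well-fed males (62.8%), though not among all 16.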

How the results depend on the processing

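No member had an FDR under 0.05 in any fit run (limma on log2 values and voom on the recovered reads), while 30 had an unadjusted p under 0.05 in the reported fit. edgeR on recovered reads was not run, and voom on the same reads was. Depth limited the values in the 3 shallow libraries, where a member had a median of 30 reads.

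The count of higher members (1 as reported) was 5 without TMM, 13 with piRNA reads as covariate and 6 without the shallow libraries, with shares given above. It was 2 with the replicate block (0.667%, against 0.56% of all listed piRNAs) and 2 with voom (0.667%, against 4.08%). With a male left out it was 0 to 11, the 11 without underfed male 1 (3.67%, against 1.33%). The count of lower members (29) was 17 with piRNA reads as covariate (5.67%, against 2.2%). It was 23 with the replicate block (7.67%, against 3.28%) and 28 with voom (9.33%, against 4.42%). With a male left out it was 20 to 48, the 48 without underfed male 1 (16%, against 5.91%). The median log2 fold change of the 300 (-0.10) was -0.02732 without TMM, 0.001948 with piRNA reads as covariate, -0.02874 without the shallow libraries, -0.05776 with voom and -0.1535 to -0.04151 with a male left out. Over all listed piRNAs the median (-0.23) was 0.10 with piRNA reads as covariate, -0.04 without the shallow libraries and -0.02 with voom. The difference in summed share (-0.225 points) ran from -0.7074 to 0.2065 with a male left out, within the SD between males. The replicate numbers were not used as pairs in the reported fit. Deviations of same-numbered males had correlations of -0.0793 to 0.145, over 0.1 in 3 of 8 pairs. Their mean was 0.0202, against 0.00716 for other pairs, and 5 of 16 males correlated best with their own number. These correlations are too small and too few to decide whether the numbers pair the males. A threshold of 20% of the median in place of 10%, chosen after seeing the data, gave 21 piRNAs with nearly missing males in place of 12.

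Of 31 named members, 9 changed sign in 30 of 775 fits, none of them among the 9 with an unadjusted p under 0.05. With piRNA reads as covariate the log2 fold change was 0.6564 for oar-piR-121, 0.1039 for oar-piR-1, -0.05778 for oar-piR-2886, 0.1108 for oar-piR-389 and 0.1729 for oar-piR-8241. Without the shallow libraries it was 0.267 for oar-piR-121, 0.04148 for oar-piR-1, 0.111 for oar-piR-389 and 0.12 for oar-piR-8241. It was 0.05451 for oar-piR-1 without TMM and 0.01208 for oar-piR-8241 with voom. With a male left out it ran from -0.5883 to 0.2113 for oar-piR-121, -0.1281 to 0.1732 for oar-piR-755, -0.0754 to 0.048 for oar-piR-1, -0.3139 to 2.048 for oar-piR-10959, -0.9059 to 0.6159 for oar-piR-223, -0.4281 to 0.1939 for oar-piR-3389 and -0.2159 to 0.1152 for oar-piR-8241. The cause of these changes was not tested.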

Other observations

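The ID numbers of the 300 were low: 44 of the 100 listed piRNAs numbered up to 100 were members, and 145 of the 981 numbered up to 1000. The median ID number was 1020 over the 300 and 2947 over all listed piRNAs, and how the numbers were given is not stated in the sources used here. When the 12 piRNAs with nearly missing males were left out, Pearson's r between 2 libraries over the other 288 had a median of 0.879 (0.605 to 0.964).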
